A study of Mus musculus with 25 samples.

Results

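Semaphorins, plexins and neuropilins form one of the large families of axon guidance ligands and receptors, and 31 of their genes were followed here among 18820 genes that had a transcript cluster with a single symbol on the array. The members were listed by symbol, with 20 semaphorins, 9 plexins and 2 neuropilins. All 31 had a cluster of their own, and where a gene had several the brightest stood for it. The question was whether these genes differed between Lhx5 mutant and wild-type tissue, by ligand class and by receptor.

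Total RNA of the mammillary neuroepithelium, the part of the hypothalamic wall that gives rise to the mammillary body, was measured on Affymetrix Mouse Gene 1.1 ST arrays, one array per sample. All embryos were C57BL/6 mice at E10.5. The 13 mutant samples (KO in the labels) came from embryos homozygous for a floxed Lhx5 allele (Lhx5 fl/fl) that had not been recombined by Cre, and the 12 wild-type samples (WT) were wild type at this locus per the labels. The floxed allele acts as a hypomorph in the study's description and keeps every exon, so the Lhx5 cluster (KO minus WT of -0.04 ± 0.17 on the log2 scale) is no check of the labels. The values are log2 expression values, which have no true zero and are not compared between genes. Array medians lay between 4.64 and 4.76. Samples are named biological replicates in the labels, which give no litter or dissection day, so the p-values measure the spread between these samples.

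The mutant arrays were not 1 set. For every member the mean of KO replicates 1 to 10 equalled the mean of KO replicates 11 to 13, with a highest difference of 2.67e-05, and over 35542 probe sets the median difference was 1.33e-06. Every difference given here is therefore that of 3 mutant arrays (KO replicates 11 to 13) from 12 WT arrays, and its direction has no separate support from KO replicates 1 to 10. The limma fit carried a batch term for KO replicates 1 to 10, and the standard error (SE) after ± comes from that fit. The labels name no batch. A batch difference between KO replicates 11 to 13 and WT would coincide with genotype and cannot be told apart from it. In WT, replicate 11 stood apart: it had the lowest level of 14 of the 31 members, and its mean over 10 endothelial marker genes was 6.53, against 7.17 to 7.38 on the other WT arrays.

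All 11 measured marker genes of the hypothalamus and mammillary region had WT means above 4.69, the median level of all tested clusters, from 5.89 (Foxb2) to 9.31 (Shh). The mean over these 11 genes lay between 6.96 and 7.46 on WT arrays and between 6.87 and 6.92 on KO replicates 11 to 13, so these sets did not overlap. KO replicates 1 to 10 ran from 6.35 to 7.18 and overlapped WT. The genes of the list did not move as one, with 8 of 11 below 0 in KO minus WT and 3 above. The largest falls were those of Otp (-1.28), Rax (-1.27), Foxb2 (-1.13) and Barhl1 (-0.79). The paper lists these genes as lower in the mutant from these same arrays. The gap in the list mean is therefore no independent check of the groups. Sim1 (0.33), Shh (0.19) and Lhx1 (0.10) lay above 0. In whole tissue, fewer cells of a type and less RNA per cell cannot be told apart.

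Semaphorins are secreted or membrane-bound proteins that repel or attract growing axons and migrating cells. Secreted class 3 semaphorins mostly bind a neuropilin, which holds the ligand while a class A plexin carries the signal into the cell, whereas most membrane-bound classes bind plexins directly. Plexins act on small GTPases inside the cell, and neuropilins also bind vascular endothelial growth factors, so the family is known from blood vessels as well as from nerves.

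No member passed an adjusted p below 0.05 in limma with the batch term (0 of 31, where 0.0242% of the 28940 tested clusters passed). At an unadjusted p below 0.05 the same fit gave 5 of 31 members (16.1%), where 10.3% of all clusters lay below that p. Sema3g, Plxna2 and Nrp2 stood higher in the mutant (3 of 31, beside 6.2% of all clusters), and Sema4a and Sema4b lower (2 of 31, beside 4.15%). The median difference over the 31 members was 0.06, against 0.01 over all clusters, with a range from -0.35 (Sema4a) to 0.48 (Sema3d). In all, 20 of 31 members lay above 0, beside 51.8% of all clusters. The 95% interval of 26 members lay within a 1.5-fold change either way, as it did for 92.1% of all clusters. The median SE of the members was 0.14 and their median SD in WT 0.23, against 0.095 and 0.143 over all clusters.

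**Figure D1:**
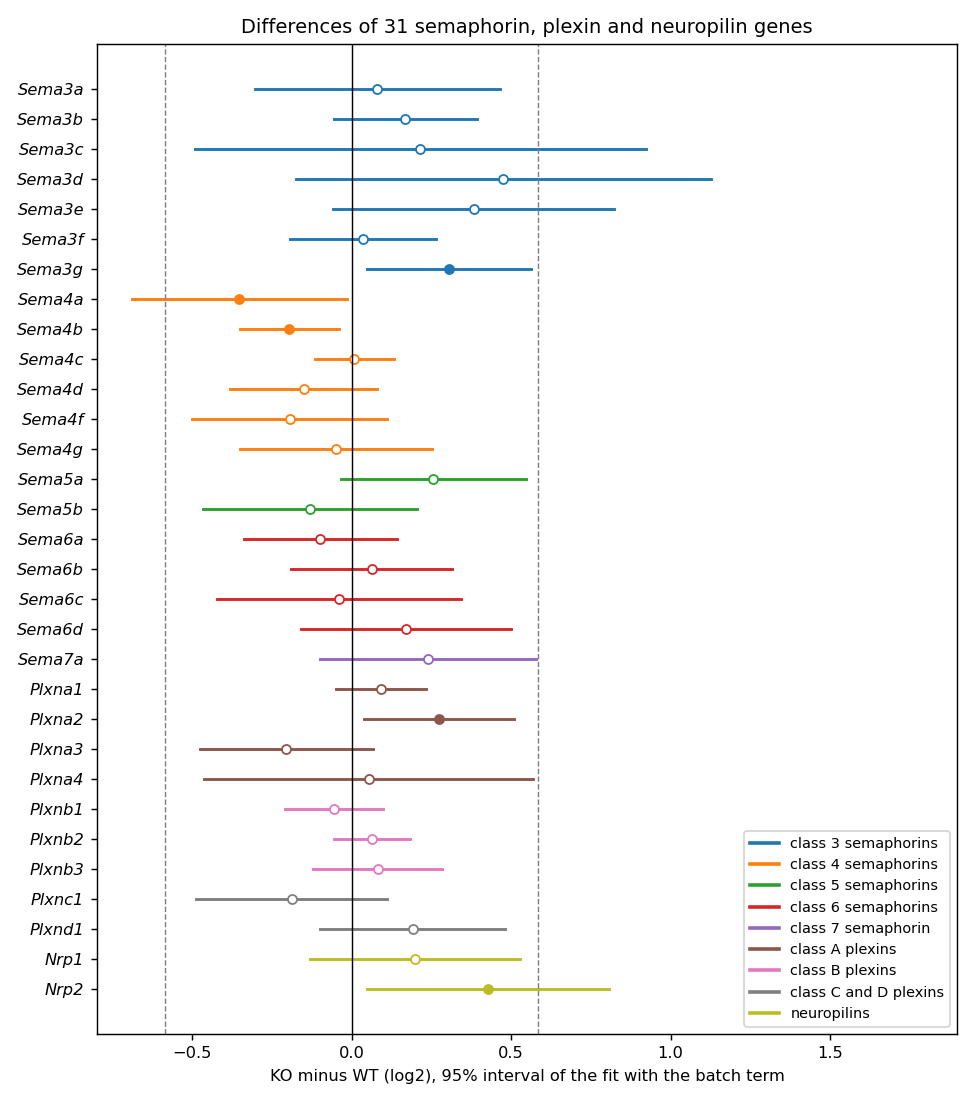
KO minus WT on the log2 scale (x axis) for each of the 31 genes (y axis), with points for the estimate, bars for the 95% interval of the limma fit with the batch term, colours for classes and dashed lines at 1.5-fold. Filled points mark the 5 members with an unadjusted p below 0.05, and all 7 class 3 semaphorins lie above 0.

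With genotype as the only term, where KO replicates 1 to 10 count as further mutant arrays although their mean was that of replicates 11 to 13, limma called 7 of 31 members (22.6%, against 16.7% of all clusters). They were Sema3e, Sema3g, Sema5a, Plxna2 and Nrp2 on the higher side and Sema4a and Sema4b on the lower side. In that fit the SE is smaller by a factor whose median over all clusters was 1.65.

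The 100 bases just before the transcription start of the 4 members with the smallest unadjusted p with the batch term that have a RefSeq promoter window are shown to give the sequence context of the genes described next. They come from RefSeq on build GRCm38.p6 and all lie on the + strand. Capitals mark the GC box GGGCGG or its other-strand form CCGCCC, a short motif of many promoters without a TATA box. Sema4b has a pair of annotated starts, and both are given. The Sema4b windows are chr7:80186770-80186869 and chr7:80198488-80198587, that of Plxna2 is chr1:194619729-194619828, that of Nrp2 chr1:62703217-62703316 and that of Sema3g chr14:31217773-31217872.
Sema4b start 1: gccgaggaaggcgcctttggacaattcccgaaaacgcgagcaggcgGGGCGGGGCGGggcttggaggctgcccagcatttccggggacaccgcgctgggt
Sema4b start 2: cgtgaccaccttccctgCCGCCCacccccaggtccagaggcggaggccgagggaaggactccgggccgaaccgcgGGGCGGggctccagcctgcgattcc
Plxna2: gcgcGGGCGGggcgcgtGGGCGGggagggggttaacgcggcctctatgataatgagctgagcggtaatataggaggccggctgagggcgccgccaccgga
Nrp2: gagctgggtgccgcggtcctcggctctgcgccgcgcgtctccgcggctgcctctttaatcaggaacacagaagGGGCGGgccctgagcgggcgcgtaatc
Sema3g: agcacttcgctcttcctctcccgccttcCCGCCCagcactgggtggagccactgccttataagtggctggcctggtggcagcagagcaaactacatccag

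RefSeq windows from 250 bases before to 50 after a start were at hand for 26 of the 31 members (37 windows). The GC box stood on either strand in 27 of these 37 windows (73%), against 35.7% of 32851 windows of the same length. The letters TAATTA, the core recognised by LIM homeodomain factors such as the Lhx5 protein and the same on both strands, stood in 0 of 37 windows and in 5.29% of all windows. Matches describe these letters in these windows only and say nothing of binding.

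The 7 class 3 semaphorins, the secreted ligands of neuropilins, all had differences above 0, beside 51.8% of all clusters. They ran from 0.03 (Sema3f) to 0.48 (Sema3d) with a median of 0.22. With an array left out, Sema3a reached -0.044 (without KO replicate 12) and Sema3f -0.017 (without KO replicate 13). With the batch term, 0 passed after adjustment and 1 of 7 (14.3%) had an unadjusted p below 0.05. The list means of surface ectoderm markers (8 of 8 genes above 0, 6.23 to 6.89 on KO replicates 11 to 13 and 5.74 to 6.60 in WT) and of mesenchyme and neural crest markers (11 of 12 above 0, 7.63 to 8.01 and 7.10 to 7.94) moved the same way. Erythroid (7 of 7), macrophage (9 of 10) and endothelial genes (9 of 10) also lay above 0. The part of all these lists in the class 3 result was not tested.

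Sema3g, a ligand that binds Nrp2 and is known from vascular endothelium, stood at 4.57, 4.71 and 4.81 on KO replicates 11, 12 and 13. The WT arrays ran from 3.82 through a median of 4.39 to 4.85, and KO replicates 1 to 10 from 4.46 through 4.70 to 5.04. All 3 mutant arrays lay above the WT median, within the WT range. The difference of 0.31 ± 0.13 (1.24-fold, 95% interval 0.05 to 0.56) had a limma adjusted p of 0.376 with the batch term (unadjusted p = 0.0219) and 0.00737 with genotype alone. The exact two-sided permutation test over the 455 splits of the 15 arrays gave p = 0.0813, where the smallest possible is 0.0022. The lowest WT value was that of replicate 11, and without that array the difference was 0.25 ± 0.10.

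Sema3e, which binds Plxnd1 without a neuropilin, stood at 5.22, 5.40 and 5.52 on KO replicates 11, 12 and 13. In WT it ran from 4.58 through a median of 5.005 to 5.58, and on KO replicates 1 to 10 from 4.85 through 5.37 to 6.14. The groups overlapped, with all 3 mutant arrays above the WT median. Its difference of 0.38 ± 0.21 (1.3-fold) had a limma adjusted p of 0.559 with the batch term and 0.0437 with genotype alone, and the exact permutation p was 0.0923.

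Sema3d had the largest difference of the family, 0.48 ± 0.32 (adjusted p = 0.64 in limma with the batch term, 95% interval -0.18 to 1.13). KO replicates 11 and 12 stood at 6.37 and 6.45, above every WT array (4.72 to 6.27), and KO replicate 13 stood at 5.29, below the WT median of 5.57. Without KO replicate 13 the difference was 0.85, and without replicate 12 it was 0.27, so a single array moved it by more than its SE. The remaining members of the class were Sema3a, the classical repellent that acts through Nrp1 (0.08 ± 0.19), Sema3b (0.17 ± 0.11), Sema3c, which binds both neuropilins (0.22 ± 0.34), and Sema3f, the repellent that acts through Nrp2 (0.03 ± 0.11). For these 4 genes every array of KO replicates 11 to 13 lay within the WT range.

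The 6 class 4 semaphorins, membrane-bound ligands that mostly bind class B plexins, had a median of -0.17, and 5 of 6 lay below 0. After adjustment 0 passed with the batch term, while 2 of 6 (33.3%) had an unadjusted p below 0.05, Sema4a and Sema4b, both lower in the mutant (4.15% of all clusters were lower at that p). Among marker lists, the medians of neuronal (-0.18, 8 of 8 below 0), neural progenitor (-0.12, 9 of 10) and hypothalamic genes (-0.16, 8 of 11) lay on the same side. The hypothalamic list holds the genes named above that the paper lists as lower. The list means of neuronal markers ran from 8.25 to 8.66 on KO replicates 11 to 13 and from 7.72 to 9.28 in WT, and those of progenitor markers from 9.08 to 9.31 and from 9.02 to 9.68. Their part in the class 4 result was not tested.

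Sema4b, whose protein binds a scaffold of the postsynaptic density, was the one member for which KO replicates 11 to 13 and WT did not overlap. The mutant arrays stood at 7.07, 7.09 and 6.87, and WT ran from 7.10 through a median of 7.17 to 7.48. Among all clusters, 1.15% had KO replicates 11 to 13 all above or all below WT. KO replicates 1 to 10 ran from 6.86 through 6.99 to 7.27 and overlapped the WT range. The difference of -0.20 ± 0.08 (1.15-fold lower, 95% interval -0.35 to -0.04) had a limma adjusted p of 0.345 with the batch term (unadjusted p = 0.0157) and 0.00482 with genotype alone. The exact permutation p was 0.011. Without KO replicate 13, the lowest of the 3, it was -0.12.

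Sema4a, a ligand of Plxnd1 and class B plexins best known from the immune system and the retina, had the largest negative difference. It stood at 4.35, 4.63 and 4.58 on KO replicates 11, 12 and 13, against 4.29 through a median of 4.84 to 5.26 in WT. KO replicates 1 to 10 ran from 4.12 through 4.50 to 5.02. All 3 mutant arrays were below the WT median but not below its lowest array. The difference was -0.35 ± 0.16 (1.28-fold lower, 95% interval -0.69 to -0.02), with a limma adjusted p of 0.457 with the batch term (unadjusted p = 0.041) and 0.0165 with genotype alone, and an exact permutation p of 0.0527.

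Of the other class 4 genes, Sema4d, the ligand of Plxnb1, had -0.15 ± 0.11, with KO replicates 11 and 13 (5.52 and 5.68) below every WT array (5.70 to 6.26) and replicate 12 (5.99) above the WT median of 5.82. Sema4f had -0.20 ± 0.15 and Sema4g, a ligand of Plxnb2, -0.05 ± 0.15. Sema4c, also a ligand of Plxnb2, was among the most tightly measured members, at 8.38 ± 0.09 (SD, n = 12) in WT with a difference of 0.01 ± 0.06 and a 95% interval from -0.12 to 0.13.

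**Figure D2:**
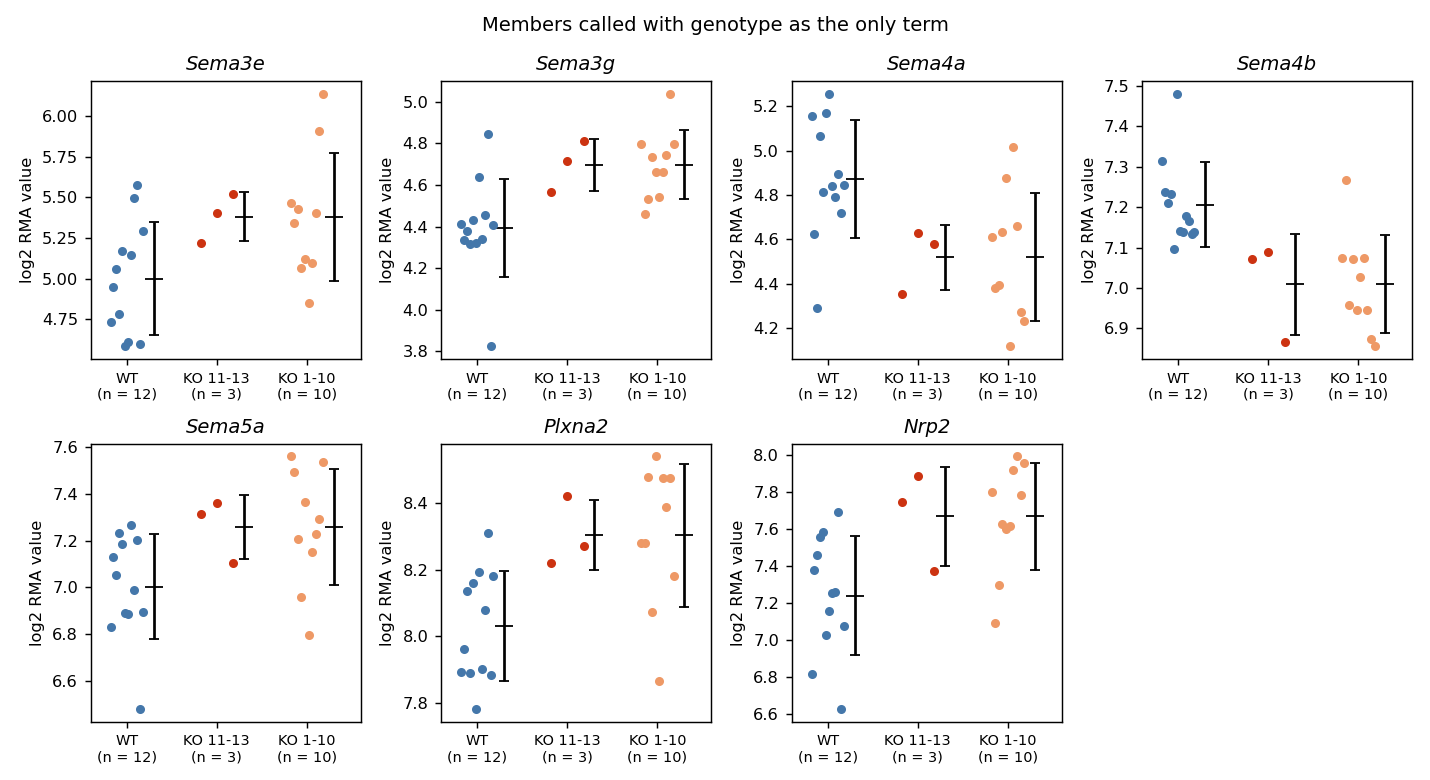
Log2 expression values (y axes) of the 7 members called by limma with genotype as the only term, on each array, for WT (n = 12), KO replicates 11 to 13 (n = 3) and KO replicates 1 to 10 (n = 10); points are arrays, horizontal ticks the mean and bars the SD. Within each gene both mutant sets share a mean, and Sema4b alone has its 3 mutant arrays outside the WT range.

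Classes 5 to 7 gave no member with an unadjusted p below 0.05. Sema5a, a transmembrane ligand with thrombospondin repeats, stood at 7.31, 7.36 and 7.10 on KO replicates 11, 12 and 13, against 6.48 through a median of 7.02 to 7.27 in WT and 6.80 through 7.26 to 7.56 on KO replicates 1 to 10. Replicates 11 and 12 thus lay above every WT array. The difference was 0.26 ± 0.14, with a limma adjusted p of 0.55 with the batch term and 0.04 with genotype alone, and an exact permutation p of 0.0857. Sema5b, of the same class, had -0.13 ± 0.16.

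The 4 class 6 semaphorins, transmembrane ligands of class A plexins, had a median of 0.01 and 0 of 4 with an unadjusted p below 0.05 by limma with the batch term, as with genotype alone. All 4 intervals lay within 1.5-fold. Sema6a, a ligand of Plxna2 and Plxna4, had -0.10 ± 0.12, Sema6b 0.06 ± 0.12, Sema6c -0.04 ± 0.19 and Sema6d, a ligand of Plxna1, 0.17 ± 0.16. Sema6b had a pair of clusters with identical values on every array. Sema7a, which is anchored to the membrane by a lipid and binds Plxnc1 and integrins, had 0.24 ± 0.17 with replicate 13 (6.29) above every WT array (5.27 to 6.24).

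Among the 9 plexins, the signalling receptors, the median was 0.06, and the intervals of all 9 lay within 1.5-fold. Plxna2, which pairs with neuropilins for class 3 ligands and binds Sema6a directly, was the one plexin with an unadjusted p below 0.05 (11.1% of the plexins, against 10.3% of all clusters). It stood at 8.22, 8.42 and 8.27 on KO replicates 11, 12 and 13. WT ran from 7.78 through a median of 8.02 to 8.31, and KO replicates 1 to 10 from 7.87 through 8.34 to 8.54. All 3 mutant arrays lay above the WT median and replicate 12 above every WT array. The difference was 0.27 ± 0.11 (1.21-fold, 95% interval 0.04 to 0.51), with a limma adjusted p of 0.395 with the batch term (unadjusted p = 0.0246) and 0.00862 with genotype alone. The exact permutation p was 0.0242.

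The other class A plexins had 0.09 ± 0.07 (Plxna1), -0.20 ± 0.13 (Plxna3) and 0.05 ± 0.25 (Plxna4). For Plxna3 the mutant arrays lay close together, at 7.42, 7.45 and 7.47, in the lower part of the WT range of 7.35 to 7.89. Class B plexins, the receptors of class 4 ligands, had -0.06 ± 0.07 for Plxnb1, 0.06 ± 0.06 for Plxnb2 and 0.08 ± 0.10 for the dim Plxnb3 cluster. Their 95% intervals reached at most 0.28 in size. A second, dimmer cluster of Plxnb1 had -0.02 ± 0.10. Plxnc1, the receptor of Sema7a, had -0.19 ± 0.15, and Plxnd1, the receptor of Sema3e that patterns blood vessels, 0.19 ± 0.14.

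Both neuropilins lay above 0. Nrp2, the receptor subunit for Sema3f and Sema3g and a co-receptor of lymphatic growth factors, stood at 7.75, 7.89 and 7.37 on KO replicates 11, 12 and 13. In WT it ran from 6.62 through a median of 7.26 to 7.69, and on KO replicates 1 to 10 from 7.09 through 7.70 to 7.99. Replicates 11 and 12 lay above every WT array, whereas replicate 13 lay inside the WT range. The difference of 0.43 ± 0.18 (1.35-fold, 95% interval 0.05 to 0.81) had a limma adjusted p of 0.413 with the batch term (unadjusted p = 0.0284) and 0.0104 with genotype alone, and the exact permutation p was 0.0549. Without WT replicate 11, which held the lowest value, it was 0.37 ± 0.17. Nrp1, the receptor subunit for Sema3a, had 0.20 ± 0.16, with replicate 11 (6.65) above every WT array (5.90 to 6.62).

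Endothelial markers, which belong to a cell type known for both neuropilins and Plxnd1, had a median difference of 0.11 (9 of 10 genes above 0), with list means from 7.19 to 7.57 on KO replicates 11 to 13 and from 6.53 to 7.38 in WT. Their part in the receptor differences was not tested.

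Which members had an unadjusted p below 0.05 depended on single arrays. Without KO replicate 12 they were Sema4a, Sema4b and Sema4d, and without KO replicate 13 they were Nrp2, Plxna2 and Sema3d (3 each). Without KO replicate 11 there were 4, Plxna2, Sema3b, Sema3g and Sema4b. Without WT replicate 1, 4, 6 or 7 Sema4a was no longer among them, and without WT replicate 10 Sema3e was added. In the exact permutation test Plxna2 and Sema4b had a p below 0.05 and the other 3 did not.

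Genes that act with the family were read from lists of partners. Of 18 receptor partners and other ligands of the receptors, 0 passed after adjustment in limma with the batch term, and the median difference was 0.07. An unadjusted p below 0.05 was found for 1 of them (5.56%, beside 10.3% of all clusters). That gene was Erbb2, a receptor tyrosine kinase that associates with class B plexins, at 8.11 to 8.19 on KO replicates 11 to 13 and 7.76 to 8.11 in WT, a difference of 0.21 ± 0.08 (adjusted p = 0.324 in limma with the batch term). Its groups lay next to each other, with all 3 mutant arrays above every WT array. Among all clusters, 1.15% had KO replicates 11 to 13 all above or all below WT. On KO replicates 1 to 10 Erbb2 ran from 7.94 to 8.40 and overlapped the WT range. With genotype alone limma called Erbb2 and Flt1, a receptor of vascular endothelial growth factor (0.32 ± 0.17). That was 11.1% of this list, beside 16.7% of all clusters. Of 22 measured genes of signalling inside the cell, 0 passed after adjustment and 1 had an unadjusted p below 0.05 (4.55%, beside 10.3% of all clusters). It was Rhoa, a GTPase downstream of plexins (-0.11 ± 0.05, adjusted p = 0.427 in limma with the batch term). The median of the 22 genes was -0.06. With genotype alone limma called Rhoa and Cdk5r1, an activator of the kinase Cdk5 (-0.46 ± 0.24), both lower in the mutant (9.09% of the list, beside 16.7% of all clusters).

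The members also differed in how much they varied among embryos of 1 genotype. In WT the SD ran from 0.08 (Plxnb2) to 0.56 (Sema3c). Sema3c (0.56 in WT and 0.64 on KO replicates 1 to 10), Plxna4 (0.44 and 0.39), Sema3d (0.41 and 0.62), Sema3e (0.35 and 0.39) and Sema6c (0.33 and 0.31) had the largest SD in WT. Plxnb2 (0.08 and 0.07), Sema4c (0.09 and 0.08), Plxnb1 (0.09 and 0.14), Sema4b (0.11 and 0.12) and Plxna1 (0.11 and 0.10) had the smallest. Among these 10, 3 of the most variable encode class 3 ligands, and 3 of the steadiest encode class A or B plexins.

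**Figure D3:**
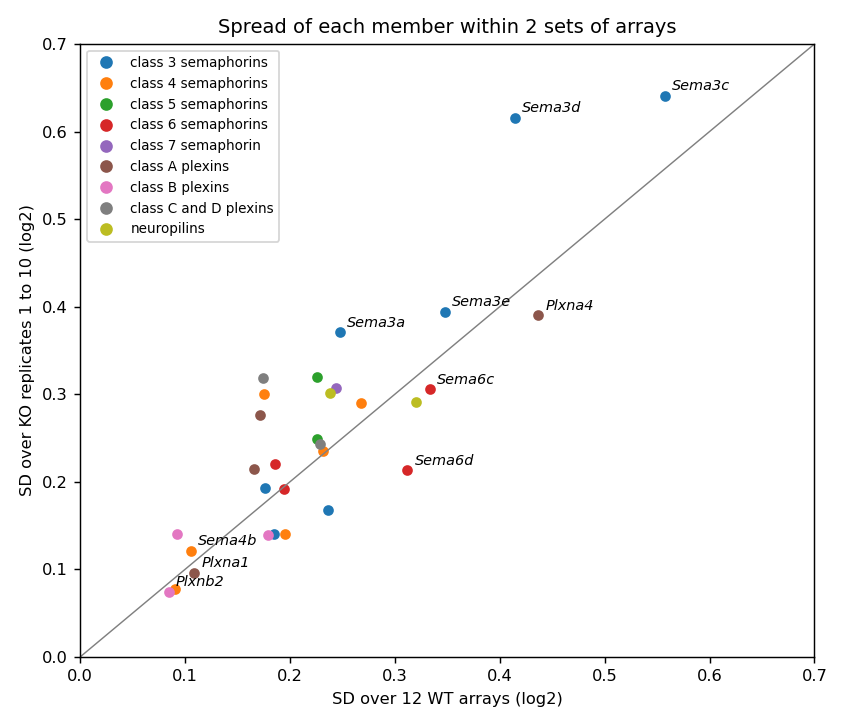
SD of each member over the 12 WT arrays (x axis, log2) and over KO replicates 1 to 10 (y axis, log2), coloured by class, with the line of equal SD. Sema3c and Sema3d stand at the upper right (0.56 and 0.41 in WT), and Plxnb2 and Plxna1 at the lower left.

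Members were set against the mean levels of 4 marker lists within WT (n = 12), 124 relations in all, with permutation p-values adjusted over the 124. By Pearson's r 20 passed at an adjusted p below 0.05, and by Spearman's rho 15. The count that passed depended on WT replicate 11. By Pearson's r 3 relations passed without it, all of them also among the 20. Of the 10 relations with endothelial or mesenchymal markers 0 did. By Spearman's rho Sema3c, Sema4g, Sema6d and Plxna4 with mesenchymal markers passed without it (adjusted permutation p from 0.032 to 0.041), and no endothelial relation did. Sema3b and Sema3e with progenitor markers and Sema4a, Sema6c and Plxnc1 with neuronal markers also passed by rho. A relation that no longer passed by r had not always changed in size. With progenitor markers r went from -0.742 to -0.744 for Sema3a, from -0.785 to -0.799 for Sema3b and from -0.8256 to -0.8257 for Sema3f. For Sema5b it was 0.742 with and without that array. With the 2 arrays farthest from the median of each list left out 1 passed. Within KO replicates 1 to 10 (n = 10), 5 passed by r. They were Sema5b with progenitor, Plxnb1 with neuronal, Nrp2 and Plxnd1 with endothelial and Nrp2 with mesenchymal markers. Plxnb1 had r = 0.87 and rho = 0.89 there (adjusted permutation p = 0.028 and 0.0366), and r = 0.63 in WT, which did not pass (0.0975). Sema4b with progenitor markers passed there by rho (0.96, adjusted permutation p = 0.00868) but not by r (0.79, 0.0577).

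The relation that passed in each of these WT sets was that of Sema6c with neuronal markers, with r = 0.95 and rho = 0.94 (adjusted permutation p = 0.00124 for each, from p = 1e-05, the smallest that 100000 permutations can give). It was r = 0.93 without the 2 farthest arrays and 0.95 without WT replicate 11. Within KO replicates 1 to 10 it was r = 0.71 and rho = 0.64 (permutation p = 0.0247 and 0.0552, adjusted p = 0.13 and 0.289), which did not pass. Sema6a also followed neuronal markers in WT, with r = 0.91 and rho = 0.82 (permutation p = 5e-05 and 0.00184, adjusted p = 0.0031 and 0.0254). It had r = 0.80 without the 2 farthest arrays and 0.84 without WT replicate 11. On KO replicates 1 to 10 it had r = 0.84 and rho = 0.84 (permutation p = 0.00277 and 0.00394, adjusted p = 0.0556 and 0.0814). Both genes encode transmembrane ligands known from growing neurons, and the neuronal list had 8 measured genes.

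Sema3e ran against progenitor markers, with r = -0.81 and rho = -0.80 in WT (permutation p = 0.00111 and 0.00272, adjusted p = 0.015 and 0.0281). It had r = -0.74 without the 2 farthest arrays and -0.86 without WT replicate 11. On KO replicates 1 to 10 it had r = -0.82 but rho = -0.43 (permutation p = 0.00864 and 0.217, adjusted p = 0.0765 and 0.504), and r = -0.10 once the 2 farthest arrays were left out. Sema3a, Sema3b and Sema3f also ran against progenitor markers in WT (r from -0.83 to -0.74). By r they did not pass without WT replicate 11 (adjusted permutation p from 0.058 to 0.0954), while Sema3b passed there by rho (adjusted permutation p = 0.0288). Sema5b, a class 5 ligand, went with progenitor markers in both sets, at r = 0.74 and rho = 0.75 in WT (permutation p = 0.00567 and 0.00658, adjusted p = 0.0387 and 0.051) and r = 0.90 and rho = 0.81 on KO replicates 1 to 10 (permutation p = 0.00049 and 0.00706, adjusted p = 0.0273 and 0.0875). Without the 2 farthest arrays its r was 0.78 in WT and 0.70 on KO replicates 1 to 10, and without WT replicate 11 it was 0.74 (adjusted permutation p = 0.0954).

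Nrp2 and Plxnd1 went with endothelial markers on KO replicates 1 to 10. Nrp2 had r = 0.90 and rho = 0.85 there (permutation p = 0.00036 and 0.00266, adjusted p = 0.0273 and 0.066), and r = 0.75 without the 2 farthest arrays. Plxnd1 had r = 0.87 and rho = 0.92 (permutation p = 0.00066 and 0.00044, adjusted p = 0.0273 and 0.0182), and r = 0.83 without them. Over all 12 WT arrays r was 0.733 for Nrp2 and 0.755 for Plxnd1 (adjusted permutation p = 0.0165 and 0.015). Without WT replicate 11, which stood apart in this list, r was 0.64 and 0.66, which did not pass (adjusted permutation p = 0.15 and 0.137). Nrp2 went with mesenchymal markers as well on KO replicates 1 to 10 (r = 0.88 and rho = 0.92, permutation p = 0.00102 and 0.00043, adjusted p = 0.028 and 0.0182, r = 0.75 without the 2 farthest arrays). Means of the endothelial and mesenchymal lists themselves correlated across arrays at 0.80 in WT and 0.71 on KO replicates 1 to 10, so these relations of Nrp2 are not independent of each other. The value in WT includes replicate 11, which had the lowest WT mean of both lists (6.53 and 7.10). The correlation of the lists without it was not computed.

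**Figure D4:**
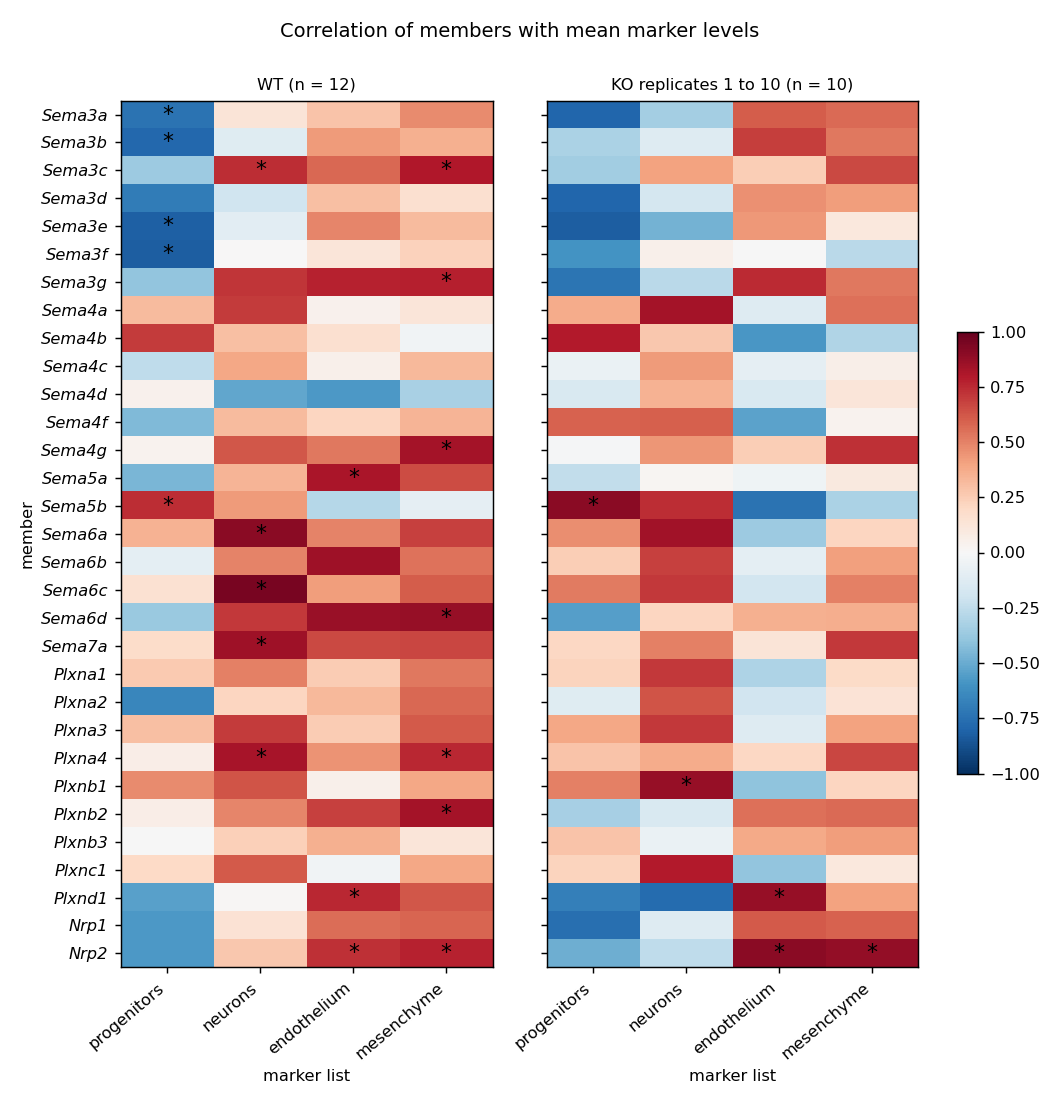
Pearson's r (colour) of each member (y axis) with the mean level of 4 marker lists (x axis) over the 12 WT arrays, left, and over KO replicates 1 to 10, right; asterisks mark a permutation p below 0.05 after adjustment over the 124 relations of a panel. There are 20 asterisks in WT, of which 3 passed without WT replicate 11, and 5 in the mutant.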

How the data were processed

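The deposited values are log2 expression values that the authors made by robust multiarray averaging (RMA), with Affymetrix Expression Console 1.0, affy and R 2.7.0 in the submitters' processing notes. An adjustment between batches and the genome build are not given in the sources used here. In the deposited table, 14 cells with values from 32.32 to 10464 on 11 arrays lay outside the log2 range, so the columns that hold them have no single unit. They were set missing, and 0 of them were in members. Of 35556 probe sets, the first 6616 by number, which carry no annotation, were not used, and 28940 were tested.

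Groups came from the labels. Differences were fitted with limma 3.58.1 in R 4.3.3 over all 25 arrays with a term for KO replicates 1 to 10, with moderated variances and two-sided p-values adjusted by Benjamini-Hochberg over all 28940 clusters, at a threshold of 0.05. This term was used because the means of both mutant sets coincide. Genotype alone was an alternative. The fit and the correlation step were tested on simulated data. Precision is limited by the number of arrays. Single genes were also compared by the exact permutation test over 455 splits into 3 and 12 arrays. Correlations used 100000 permutations and the mean over all measured genes of a list, and no member is in a marker list. Python 3.11.15 with matplotlib 3.10.9 drew the figures. The members, lists, fit and rule for naming genes were chosen with earlier results of these data known. The rule names all 31 members, with the values of those called in either fit, with an unadjusted p below 0.05 or with no overlap between groups, and of the partner lists the genes called in either fit and those with the smallest p. The marker lists covered hypothalamus, progenitors, neurons, endothelium, mesenchyme and neural crest, surface ectoderm, macrophages (median 0.10) and erythroid cells (median 0.28). Listed genes with no cluster of their own, such as Farp2, Arhgef11, Pak1, Tubb3 and Elavl3, were left out. Alternatives were the terms and arrays of the fit, repeated quantile normalization, centring, a filter on dim clusters, array weights, limma-trend, embryo sex, a replicate block, other clusters of a gene, the misprinted cells restored, and each array left out.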

Additional observations from a re-analysis of the deposited data

How the results depend on the processing

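No member passed after adjustment with the batch term under any setting that retained it, nor with any single array left out (0 to 0 of 31). With genotype as the only term 7 members passed (16.7% of all clusters did). The replicate numbers do not pair the samples: correlations of same-numbered arrays after removal of group means ran from -0.335 to 0.428, were above 0.1 for 4 of 12 numbers, and 0 arrays correlated best with their own number. With the replicate block and genotype alone 8 members passed (12.6% of all clusters did), and with the replicate block and the batch term 0.

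The count of members with an unadjusted p below 0.05 was 5. It became 16 with genotype alone (beside 31.2% of all clusters), 15 with the replicate block and genotype alone (beside 29.2%), 9 with the replicate block and the batch term (beside 8.13%), and 3 when clusters dimmer than the median were dropped (beside 9.83% of the clusters retained), which removed 4 of the members. With 1 array left out it ran from 3 to 6, with 3 without KO replicate 12 or 13 and 6 without WT replicate 10. Leaving out any of KO replicates 1 to 10 cannot change a difference in the fit with the batch term, and the same 5 members remained. The median difference of 0.06 became 0.22 with the replicate block and the batch term, and ran from 0.04 to 0.11 with 1 array left out. In the fit with the replicate block and the batch term, each difference is that of KO replicates 11 and 12 from WT replicates 11 and 12. The other arrays do not enter it. The cause of the other shifts was not tested. Of 399 differences of single members over 13 settings, 395 had the direction given in the report. The exceptions were Sema3f (-0.11), Sema4g (0.33), Sema6a (0.00962) and Sema6c (0.25), each with the replicate block and the batch term. Several settings could not change a direction, because they use the same differences. These were genotype alone, KO replicates 11 to 13 with WT only, limma-trend, the restored cells and the exact permutation test.

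With 1 array left out, 6 members changed direction: Sema3a ran from -0.044 to 0.24, Sema3f from -0.017 to 0.085, Sema4c from -0.032 to 0.036, Sema4g from -0.18 to 0.11, Sema6c from -0.089 to 0.019 and Plxna4 from -0.15 to 0.27. The count of 20 correlations in WT became 15 by Spearman's rho, 1 without the 2 farthest arrays and 5 on KO replicates 1 to 10. By Pearson's r it became 3 without WT replicate 11, a setting chosen after seeing the data. With 3 mutant arrays behind each difference, the intervals of 26 of 31 members lay within 1.5-fold, which leaves smaller changes unresolved.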
